A study of Mus musculus with 9 samples.

Results

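The genes of the interleukin-6 family form a short signalling chain, and 10 of its genes were described here in the 9 clones of primary tumor cells (MPC) of the study. They were chosen by name and not by their values, though earlier results of these data were known. They are the cytokine genes Il6, Lif, Osm and Il11, the receptor genes Il6ra, Il6st, Osmr and Lifr, the transcription factor gene Stat3 and the inhibitor gene Socs3. All 10 are among the 18049 genes listed in the deposited table. The 9 clones belong to a single group. They were grown from pancreatic tumors of WTg mice, which the labels give as a cross of EL1-Luc/EL1-Tag with CAG-Mettl3. In these mice the ubiquitous CAG promoter drives a Mettl3 open reading frame, and the elastase I promoter, which is active in pancreatic acinar cells, drives luciferase and the large T antigen of SV40. Every clone carries all of these transgenes, and clones of mice without the Mettl3 transgene were not analysed here. Each clone was a colony picked with a cloning cylinder after tumor tissue had been minced, plated and passaged. Neither the labels nor the methods tie a clone to an animal, an age or a tumor, so the p-values below measure only the spread between these clones. The labels call the treatment none but also carry a protocol field that names a PLK1 inhibitor, NMS-P937. The clones were taken as untreated because the methods describe no drug for them.

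IL-6, LIF, IL-11 and oncostatin M are secreted cytokines that share 1 signalling receptor chain, gp130, the product of Il6st. IL-6 reaches gp130 through its own receptor chain, the product of Il6ra, while LIF uses gp130 paired with the LIF receptor. Oncostatin M uses gp130 paired with the oncostatin M receptor, the product of Osmr. In the pancreas, these cytokines are made by stromal fibroblasts and by myeloid cells and are best known from inflammation and from signalling between tumor and stroma. Engaged receptors activate Janus kinases, which phosphorylate STAT3, and STAT3 induces Socs3, whose product binds gp130 and shuts the signal down. STAT3 activity is set by phosphorylation, which mRNA levels do not measure.

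The deposited values were turned back into normalized counts, which are read counts times 1 scaling factor per library. Depth was 12198022 to 20453923 reads on genes per library, and 1 read was worth 1.26 to 2.19 normalized counts. The lowest level that this depth can show, set at 3 reads, was 3.79 to 6.57 normalized counts. Intervals given below are 95% Wilson intervals and cover counting error only. The libraries carry 3 kinds of column name whose meaning is not stated. They are called here A1, the only library of prefix A, B1 to B4 and C1 to C4. Xist was at 29664 to 32912 normalized counts in prefix B and at 8.39 or less in the other libraries, so the prefix and the sex of the mouse cannot be told apart. A1 stood apart in depth, the next lowest library having 16526389 reads, and in Mettl3, which was at 2184 normalized counts there and at 468 to 621 elsewhere. C3 stood apart in 6 pancreatic acinar markers, whose sum was 2415 normalized counts there, 396 in C2 and lower in the other 7 libraries. The labels call the cells fibroblasts, and 12 of 13 fibroblast markers were above 3 reads in every library, with a summed level of 364118 to 994405 normalized counts. All 14 macrophage markers were above 3 reads in every library as well, at a summed level of 550756 to 864370, so markers of both cell types were present in every library. Of 5 epithelial markers, Epcam was at 0 reads in all 9 libraries and Krt8 and Krt18 reached at most 1 and 5 reads, while Krt19 (7.23 to 145 normalized counts) and Cdh1 (8.91 to 152) were above 3 reads in every library. In such bulk libraries, fewer cells of a type and less RNA per cell cannot be told apart.

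Reference promoter sequence is shown for the 3 genes that the results below turn on most, Socs3, Il6 and Osmr, so that their regulatory letters can be read beside their levels. RefSeq (GRCm38.p6) gave windows of 300 bases, from 250 before to 50 after a transcription start, for 9 of the 10 genes. Capitals mark matches to TTCNNNGAA (the core letters bound by STAT factors), TGANTCA (AP-1) or GGNNTTTCC (NF-kB), searched on both strands. N stands for any base, so the AP-1 pattern is loose at its middle base. The Socs3 window lies on the minus strand at chr11:117969317-117969616. That of Il6 lies on the plus strand at chr5:30012864-30013163, and that of Osmr on the minus strand at chr15:6874264-6874563. The annotated Socs3 and Osmr genes reach further upstream, to chr11:117970336 and chr15:6874968. Both of these windows thus lie inside the annotated gene, and distances below are counted from the start used for the window.
Socs3: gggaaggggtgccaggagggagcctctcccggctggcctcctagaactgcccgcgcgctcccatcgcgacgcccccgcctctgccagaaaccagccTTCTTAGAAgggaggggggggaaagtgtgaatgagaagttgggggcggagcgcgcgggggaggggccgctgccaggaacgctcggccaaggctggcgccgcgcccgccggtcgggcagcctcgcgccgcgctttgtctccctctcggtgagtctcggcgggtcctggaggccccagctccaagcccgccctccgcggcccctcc
Il6: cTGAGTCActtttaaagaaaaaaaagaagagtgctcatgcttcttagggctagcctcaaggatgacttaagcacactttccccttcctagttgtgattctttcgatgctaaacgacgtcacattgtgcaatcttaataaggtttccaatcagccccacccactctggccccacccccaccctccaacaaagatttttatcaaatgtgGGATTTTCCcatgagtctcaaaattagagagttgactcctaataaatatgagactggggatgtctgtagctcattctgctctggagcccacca
Osmr: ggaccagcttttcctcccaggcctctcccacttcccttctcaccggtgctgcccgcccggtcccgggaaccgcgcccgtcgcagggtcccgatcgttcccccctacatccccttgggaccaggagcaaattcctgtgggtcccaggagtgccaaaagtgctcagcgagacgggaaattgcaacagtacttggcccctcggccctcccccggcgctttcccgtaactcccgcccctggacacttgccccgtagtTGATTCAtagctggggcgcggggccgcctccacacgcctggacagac

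The STAT letters stood in the Socs3 window as TTCTTAGAA, and in no window of the other 8 genes. They lay 154 bases before the start used for the window, and inside the annotated gene. Of all 32851 mouse windows, 8.30% held them. Of the 13 genes on a list of STAT3 targets that had a window, 0 held them, which says only that these letters are not in those windows. The Il6 window held an AP-1 match, TGAGTCA, 249 bases before the start and an NF-kB match, GGATTTTCC, 43 bases before it. The Osmr window held TGATTCA, a match to the loose AP-1 pattern, beginning 3 bases after the start used for the window. Its middle base is T, where the matches in Il6, Lif and Il11 have G or C. Matches to the AP-1 pattern were also found in the windows of Lif and Il11. With any middle base, 7.81% of all windows held that pattern, and NF-kB letters stood in 5.82% of all windows. No measurement of factor binding was analysed here. By the same annotation, Osm and Lif are neighbours on chromosome 11, with a gap of 16.5 kb, and Osmr and Lifr lie 215.6 kb apart on chromosome 15.

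All 10 genes were above 3 reads in every clone. Among the ligands, Il6 (ENSMUSG00000025746) varied most. Its lowest value was 31.8 normalized counts in B3 (22 reads, interval 21.0 to 48.2), its median was 255 and its highest was 579 in C2 (interval 523 to 641). The 18.2-fold range is far wider than the counting error of either end. C2, C4, C1 and A1 held the 4 highest values, between 387 and 579, while C3 at 85.3 lay among the prefix B clones, which spanned 31.8 to 255. The SD of log2 Il6 over clones, 1.38, was at percentile 95.3 of 14705 genes whose mean reached 10 normalized counts. The mean was 286.5 ± 193 (SD, n = 9).

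Lif (ENSMUSG00000034394), a gene known for keeping stem cells undifferentiated and for its release by pancreatic stellate cells, was lowest in C3 at 89.5 normalized counts, had a median of 322 and was highest in C2 at 560. The mean was 294 ± 149 (SD, n = 9). C3 and C4 at 89.5 and 102 stood below the other 7 clones, the lowest of which was A1 at 230. Prefix B lay within 238 to 416, inside the range of prefix C. C4 was thus among the highest clones for Il6 and among the lowest for Lif.

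Osm (ENSMUSG00000058755), a cytokine gene of macrophages and other leukocytes, was the most even ligand. Its lowest value was 132 normalized counts in C3, its median 178 and its highest 333 in A1. The other 8 clones reached at most 195, and the 4 prefix B clones lay between 171 and 183. A1 was also the clone with the highest Mettl3 and the lowest depth, and the part of either in this value was not tested. Il11 (ENSMUSG00000004371), a cytokine gene of stromal cells, had only 4 to 29 reads in any library. Its level was 5.60 normalized counts in C3 (interval 2.18 to 14.4), had a median of 23.3 and reached 36.6 in B4 (interval 25.5 to 52.6). The interval of C3 lay below those of B2, B3, B4, C1 and C4, and the intervals of the other 8 clones overlapped each other.

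Of the receptors, Il6ra (ENSMUSG00000027947), the chain that binds IL-6 itself and that macrophages and hepatocytes carry, ran from 1024 normalized counts in A1 through a median of 1539 to 1853 in B1. It was high in all prefix B clones, 1539 to 1853, and in C3 at 1772, and lower in C1, C2, C4 and A1, which lay between 1024 and 1365. Those 4 clones were the ones with the most Il6. Il6st (ENSMUSG00000021756), the shared signalling chain, was at 2751 in B3, had a median of 3891 and reached 8558 in A1, with C2 next at 6500. Its mean was 4639 ± 1836 (SD, n = 9). Prefix B lay within 2751 to 3891 and overlapped prefix C at 3264 to 6500.

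Osmr (ENSMUSG00000022146), the oncostatin M receptor gene, spread 4.99-fold, from 653 normalized counts in B3 through a median of 1960 to 3258 in A1. A1, C2 and C4 were at 3005 or more, B2 and C1 were at 2240 and 1960, and B1, C3, B4 and B3 were at 1119 or less. Lifr (ENSMUSG00000054263), the LIF receptor gene, was lowest in C1 at 197, had a median of 308 and was highest in B1 at 429. Its clones followed another order than those of Osmr, its neighbour on the chromosome, and Pearson's r between both was 0.10 over the 9 clones.

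Downstream, Stat3 (ENSMUSG00000004040) was the steadiest of the 10 genes, at 4291 normalized counts in B4, a median of 5155 and 6395 in C4. Its mean was 5150 ± 700 (SD, n = 9), and its SD on the log2 scale, 0.20, was at percentile 39.0 of the same genes. Socs3 (ENSMUSG00000053113), the feedback inhibitor, spread 5.50-fold. It was lowest in B4 at 283, had a median of 508 and was highest in A1 at 1556. C4 and C2 followed at 1167 and 1138, and no other clone was above 740. The clones with at least 1138 were thus the same 3 that led for Osmr.

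**Figure D1:**
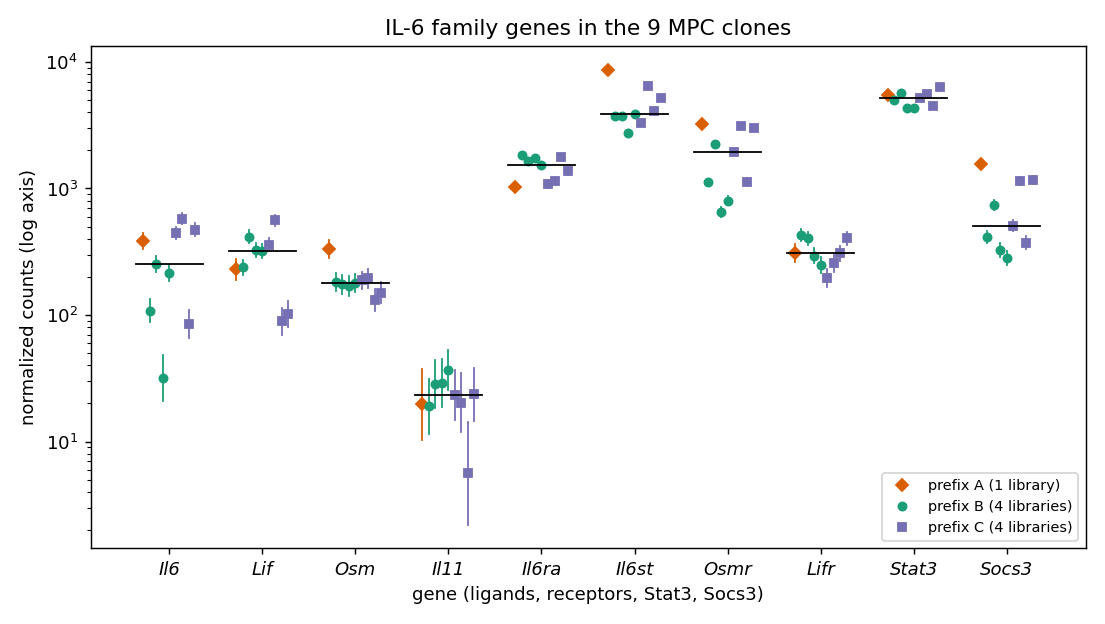
Levels of the 10 IL-6 family genes in the 9 MPC clones, in normalized counts on a log axis, with 1 point per library, its 95% Wilson interval for counting error and a line at the median. Stat3 points lie close together, from 4291 to 6395, while Il6 points run from 31.8 to 579. Heights of different genes should not be compared, since transcript length was not corrected for.

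Whether the genes of the chain varied together among clones was tested with Pearson's r on log2(normalized counts + 1) over all 45 pairs, with an exact two-sided permutation test and Benjamini-Hochberg adjustment over the 45. At an adjusted p under 0.05, 5 pairs passed, all positive, and 12 had an unadjusted p under 0.05. The share of all gene pairs with an unadjusted p that low was not worked out, so the 12 cannot be read as an excess. These 5 pairs link 5 genes, Osmr, Socs3, Stat3, Il6 and Il6st, and are not independent of each other. As background, 4.44% of the 123001 pairs of 1 of the 10 genes with any other gene had an r as far from 0 as the weakest of the 5, against 11.1% within the family. By Spearman's rho, 1 pair passed. The number passing by Pearson's r was 3 without A1 and 2 without C3. Without the 2 clones farthest from the median level of a pair's first gene, it was 1. It was 0 when prefixes B and C were each centred on their own mean, a setting with fewer possible pairings. The test over all clones takes them as exchangeable, which the prefixes, and with them sex, may not allow. The 5 calls are thus not shown to hold within prefixes.

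The closest pair was Osmr with Socs3. Their Pearson's r was 0.950 (exact permutation test, p = 0.00039, adjusted p = 0.018, n = 9) and Spearman's rho reached the same value (p = 0.00035, adjusted p = 0.016, exact permutation test). Both genes were highest in A1, C2 and C4 and lowest in B3 and B4. Among 12300 genes whose mean reached 50 normalized counts, Socs3 ranked 12 by its r with Osmr. Without A1, r was 0.952. It was 0.953 once the 2 clones lying farthest from the median Osmr level were dropped (exact permutation test, adjusted p = 0.036, n = 7). When each of prefixes B and C was centred on its own mean, r stayed at 0.937 (exact permutation test, p = 0.0069, adjusted p = 0.10, n = 8).

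Stat3 followed both genes at a much smaller range. Its r was 0.895 with Osmr (exact permutation test, p = 0.0013, adjusted p = 0.030, n = 9; rho 0.817, p = 0.011, adjusted p = 0.14) and 0.859 with Socs3 (exact permutation test, p = 0.0041, adjusted p = 0.037, n = 9; rho 0.883, p = 0.0031, adjusted p = 0.069). Centred within prefixes, these values were 0.928 and 0.929 (exact permutation test, adjusted p = 0.10 and 0.078, n = 8). Il6 had an r of 0.857 with Osmr (exact permutation test, p = 0.0029, adjusted p = 0.037, n = 9), with rho at 0.80 (exact permutation test, p = 0.014, adjusted p = 0.14) and r at 0.794 after centring (exact permutation test, adjusted p = 0.28, n = 8). Il6st had an r of 0.835 with Socs3 (exact permutation test, p = 0.0035, adjusted p = 0.037, n = 9), with rho at 0.65 (exact permutation test, p = 0.067, adjusted p = 0.29) and r at 0.642 after centring (exact permutation test, adjusted p = 0.50, n = 8). Among the same 12300 genes, Stat3 ranked 121 by its r with Osmr, and Socs3 ranked 41 by its r with Stat3. Osmr ranked 128 by its r with Il6, and Socs3 ranked 352 by its r with Il6st. When the 2 clones lying farthest from the median level of a pair's first gene were dropped, r of these 4 pairs fell to 0.795, 0.814, 0.776 and 0.607 and none passed (exact permutation test, adjusted p of 0.26 to 0.52, n = 7). These 4 calls thus rest on having those clones in the test, though r stayed at 0.776 or more for all but Il6st with Socs3 and a test on 7 clones needs a larger r to pass. Without C3, r of Stat3 with Socs3, of Il6 with Osmr and of Il6st with Socs3 was 0.846, 0.851 and 0.855, all with an adjusted p of 0.064 (exact permutation test, n = 8), so with 1 clone fewer r moved little and none of the 3 passed. After rescaling to each library's total or upper quartile, r of Stat3 with Socs3 was 0.822 and 0.806 and did not pass (exact permutation test, adjusted p = 0.069 and 0.088, n = 9), and r of Il6st with Socs3 was 0.825 after the former (exact permutation test, adjusted p = 0.053, n = 9). Without A1, r was 0.747 for Il6st with Socs3 and 0.858 for Il6 with Osmr, and neither passed (exact permutation test, adjusted p = 0.19 and 0.069, n = 8).

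**Figure D2:**
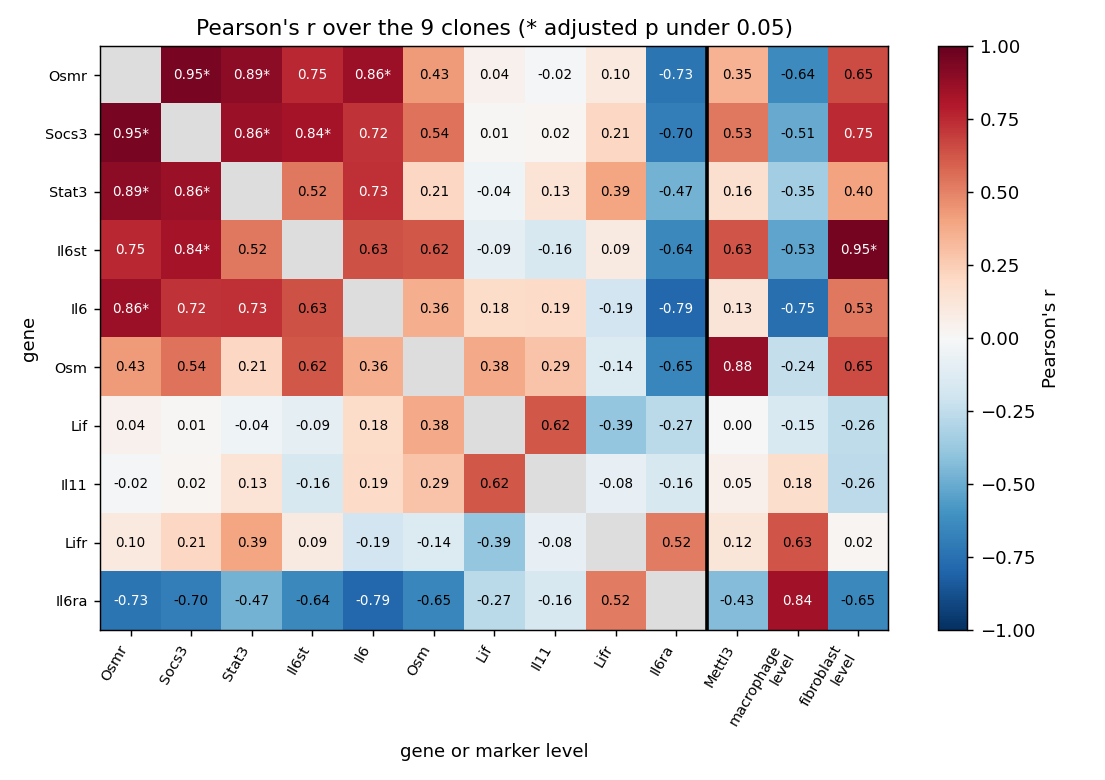
Pearson's r over the 9 clones between the 10 genes, and of each with Mettl3, the macrophage level and the fibroblast level, right of the black line. A star marks an adjusted p under 0.05. The red block at the upper left holds Osmr, Socs3, Stat3, Il6st and Il6. Against those genes the Lif and Il11 rows are pale and the Il6ra row is blue. The Il6ra row is red for Lifr (r = 0.52) and the macrophage level (r = 0.84).

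The ligands did not move as a block. Il6 and Lif had an r of 0.18 (exact permutation test, p = 0.65, adjusted p = 0.89, n = 9) and a rho of 0.32, and Lif had an r of 0.01 with Socs3 (exact permutation test, p = 0.97, adjusted p = 0.97, n = 9). Both r values turned negative without C3, at -0.05 and -0.23. Il6 with Socs3 had an r of 0.723 (exact permutation test, p = 0.027, adjusted p = 0.12, n = 9) and a rho of 0.75 and did not pass. For Il6st with Stat3, r was 0.525 (exact permutation test, p = 0.15, adjusted p = 0.35, n = 9). A pair named only after its values were seen is Il6 with its own receptor gene, Il6ra. Its r was -0.79 (exact permutation test, p = 0.013, adjusted p = 0.097, n = 9), rho was -0.77 and r stayed between -0.84 and -0.71 under all alternatives, and it did not pass. Of 12300 genes, 10.3% had an r with Il6 at least as far from 0.

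**Figure D3:**
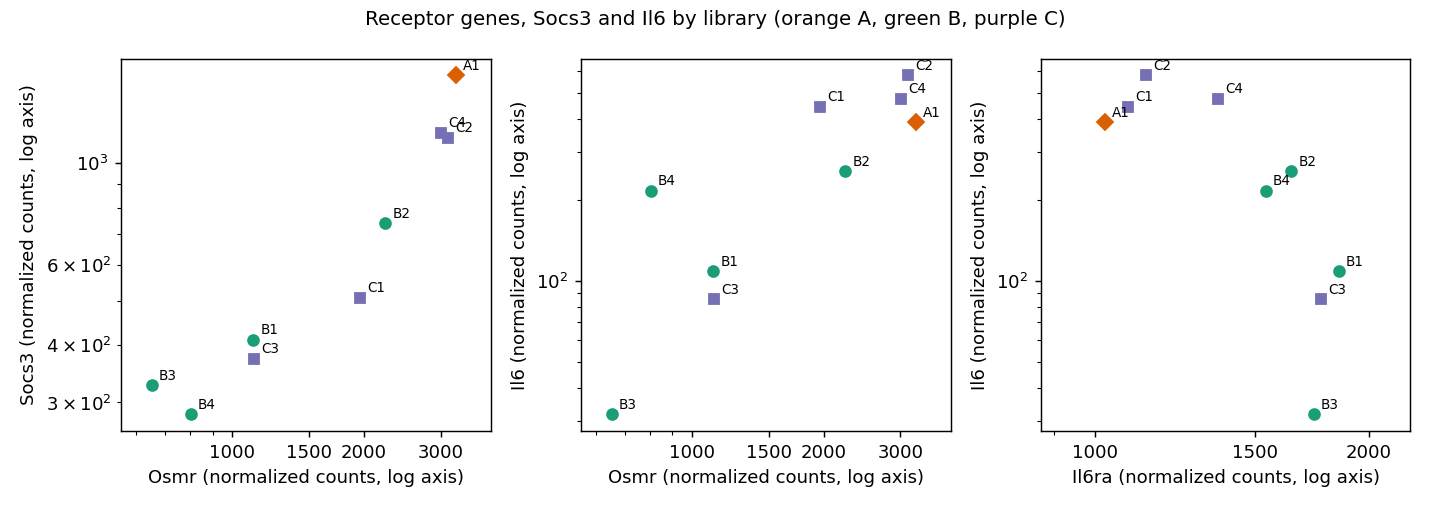
Normalized counts of Osmr against Socs3, Osmr against Il6 and Il6ra against Il6, on log axes, with 1 point per library (orange A, green B, purple C). In the left panel the 9 clones lie close to 1 rising line (r = 0.950), and in the right panel C2, C4, C1 and A1 combine high Il6 with low Il6ra, a pair that did not pass (adjusted p = 0.097, exact permutation test).

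Because markers of fibroblasts and of macrophages were both present, the 10 genes were set against the level of each marker list, taken as the mean log2(normalized counts + 1) of its genes, and against Mettl3. Of these 30 relations, 1 passed at an adjusted p under 0.05, and 7 had an unadjusted p under 0.05. The share of all genes with an unadjusted p that low was not worked out, so the 7 cannot be read as an excess. Il6st followed the fibroblast level with an r of 0.954 (exact permutation test, p = 3.6e-05, adjusted p = 0.0011, n = 9) and a rho of 0.950 (exact permutation test, p = 0.00035, adjusted p = 0.011). That level averages markers that did not all move together. Dcn, Lum and Fap had higher means in prefix B (1366, 28.1 and 31.0) than in prefix C (373, 4.12 and 25.9). The other fibroblast markers had higher means in prefix C. Lum was above 3 reads in only 6 libraries. Of all genes set against Mettl3 or a marker level, 0.382% reached an r that far from 0, and Il6st ranked 5 of 12301 genes by its r with the fibroblast level. The call was kept without A1 (r = 0.923, adjusted p = 0.012, exact permutation test, n = 8) and without C3 (r = 0.961, adjusted p = 0.0082, exact permutation test, n = 8). It was lost after centring within prefixes (r = 0.912, adjusted p = 0.10, exact permutation test, n = 8). The call was lost once the 2 clones with the most distant fibroblast levels were dropped (r = 0.883, adjusted p = 0.077, exact permutation test, n = 7). With a pseudocount of 0.1 it was lost over all 9 clones too (r = 0.879, adjusted p = 0.053, exact permutation test). The direction stayed under every alternative.

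Osmr had an r of 0.654 with the fibroblast level (exact permutation test, p = 0.043, adjusted p = 0.20, n = 9), and r was 0.287 after centring. Socs3, named here after its value was seen, had an r of 0.747 with that level. Of 12301 genes, 29.1% had an r with the fibroblast level at least as far from 0 as Osmr, and 16.8% as Socs3. The part of the marker levels in the relations among the family genes was not tested. On the macrophage side, Osm had an r of -0.24 with the macrophage level (exact permutation test, p = 0.57, adjusted p = 0.77, n = 9). Il6ra, also named after its value was seen, had an r of 0.841 with it (exact permutation test, p = 0.0060, adjusted p = 0.090, n = 9), rho 0.80, and without C3 r was 0.910 (exact permutation test, adjusted p = 0.0499, n = 8). Il6, likewise named after its value was seen, ran against the macrophage level. Its r was -0.752 (exact permutation test, p = 0.020, adjusted p = 0.15, n = 9) and rho was -0.83, and it did not pass. Under the alternatives r lay between -0.81 and -0.58. Of 12301 genes, 8.63% had an r with the macrophage level at least as far from 0 as Il6ra, and 20.8% as Il6. Il6 had an r of 0.13 with Mettl3 (exact permutation test, p = 0.80, adjusted p = 0.86, n = 9), which turned to -0.51 without A1. Osm had an r of 0.876 with Mettl3 over 9 clones, but A1 lies apart from the rest in both genes, and without it r was 0.158 (exact permutation test, p = 0.74, n = 8).

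The labels do not say whether the prefixes are batches, and prefix B differs from prefix C in Xist and so in the sex of the mice. As a check, prefix C was set against prefix B, a difference in which prefix and sex cannot be told apart, with limma across all 14737 genes whose mean over these libraries reached 10 normalized counts. The test called 29 genes, 0.197% of those tested, and 0 of the 10 family genes. With an unadjusted p under 0.05, there were 20.0% of all genes and 1 of the 10, Il6ra, whose log2 difference (C minus B) was -0.36 (SE 0.15, adjusted p = 0.23 from limma). The log2 differences of the other 9 were 1.43 for Il6, 0.99 for Osmr, 0.79 for Socs3, 0.40 for Il6st, 0.15 for Stat3, -0.11 for Osm, -0.25 for Lifr, -0.62 for Lif and -0.75 for Il11. The interval of Il6 ran from -0.36 to 3.22 and that of Osmr from -0.01 to 1.997, so 4 clones against 4 leave room for large differences. C3 alone moved the count of all genes called to 262 (1.78%) when it was left out, and even then none of the 10 passed, Il6ra coming closest with an adjusted p of 0.056 from limma. Leaving out any 1 of the other 7 libraries lowered the count of all genes called to between 8 and 17.

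**Figure D4:**
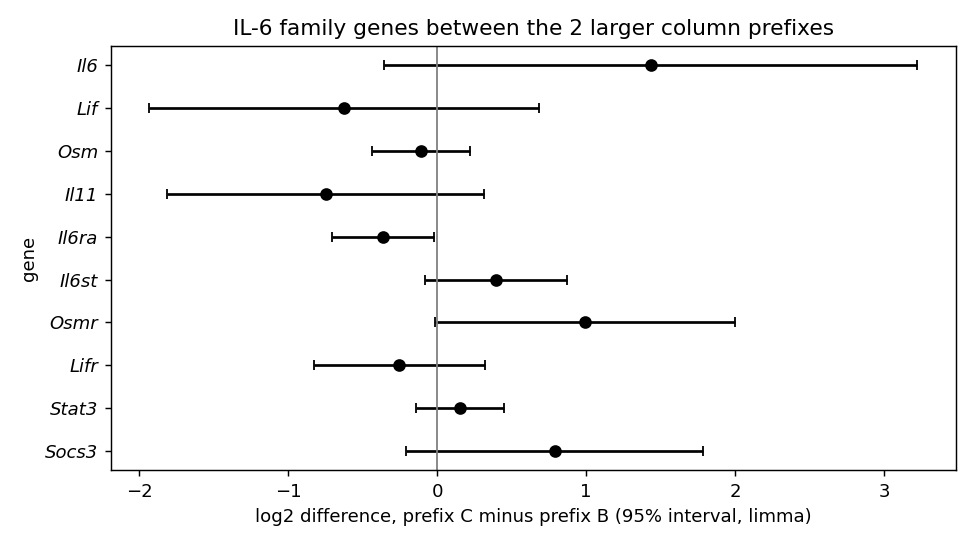
Log2 difference of each family gene between the prefix C and the prefix B libraries, 4 against 4, with the 95% interval from limma. The interval of every gene but Il6ra holds 0, and Il6ra, at -0.36, did not pass after adjustment.

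The wider pathway was read from lists of 52 genes, chosen by function. Of these genes, 47 were tested between the prefixes, 0 passed and 11 had an unadjusted p under 0.05, a share near the 20.0% of all genes. Among 8 further ligand genes of the family, 6 were listed. Clcf1, a cytokine gene that acts through gp130, was at 253 to 700 normalized counts. Ebi3, a subunit shared by IL-27 and IL-35, was at 206 to 472. Ctf1, Cntf and Il27 had at most 46.3 in any clone, and Il27 was at 1 read in A1.

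The further receptor genes were Il11ra1 at 806 to 1184 normalized counts, Cntfr at 26.6 to 129, Il27ra at 20.2 to 65.0 and Il31ra at no more than 2.55. Il11ra1 has near-identical copies in the mouse genome, so its value is uncertain. The genes of both proteases that shed the IL-6 receptor from the cell surface, Adam10 and Adam17, were at 3809 to 6418 and 3526 to 4724. All 6 kinase and STAT genes were above 3 reads in every clone, among them Jak1 at 7069 to 8558 and Stat5a at 310 to 415 normalized counts. All 7 further inhibitors were above 3 reads in every clone, among them Ptpn11 (4617 to 6349) and Ptpn6 (3582 to 6650), both genes of SH2-domain phosphatases, and Socs1 (26.3 to 56.1). Socs3 spread 5.50-fold, whereas Socs2, Cish and Socs1 spread 2.18-fold, 3.09-fold and 2.14-fold.

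Of 18 genes known as STAT3 targets, 17 were above 3 reads in every clone. Ccnd1, the cyclin D1 gene, was at 13720 to 26324 normalized counts, and Lcn2, a secreted acute-phase gene, was at or under 3 reads in all 9. Other acute-phase genes spread widely, Saa3 from 16.8 to 211 and Hp from 16.4 to 193. Of 4 regulators of Il6 mRNA stability, Zfp36, which binds AU-rich mRNA and speeds its decay, was at 1086 to 5153 with its highest value in A1. Rc3h1, another gene of mRNA decay, was lowest in A1 at 1234 and reached 1736. Of the cytokine genes known to induce Il6, Tnf was at 434 to 1232, Il1b at 14.2 to 61.1 and Il1a at 0 to 21.7. Without C3, Zfp36 and Il1b were lower in prefix C than in prefix B, with log2 differences of -0.94 and -1.58 (adjusted p = 0.035 and 0.043 from limma), and in the fit with C3 neither passed.

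The genes whose clone pattern was most like those of Il6, Lif and Socs3 were found among 12300 genes whose mean reached 50 normalized counts, by Pearson's r over the 9 clones and without a test. For Il6 these were Gypc (r = 0.991), Tead3 (r = 0.970) and Setbp1 (r = 0.964). For Lif they were Rnf217 (r = 0.938), Timp1 (r = 0.924), which is on the STAT3 target list, and Tmem214 (r = 0.907). For Socs3 they were Rcor2 (r = 0.986), Cops2 (r = 0.972) and Pgghg (r = 0.970). No gene was among the top 3 of more than 1 of them, and the highest of 12300 values is high by selection.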

How the data were processed

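RNA of the 9 MPC clones was sequenced from stranded mRNA libraries. The authors deposited log2 values for 18049 genes. The lowest deposited value is 2, the log2 of an offset of 4, and undoing the log2 and subtracting 4 gave normalized counts that are whole multiples of 1 step per library. Dividing by that step gave whole reads (tolerance 0.1) for 100% of nonzero values under 1000 reads. The submitters' processing notes name FastQC 0.11.9, STAR 2.7.10, RSEM 1.3.3 and GRCm38, without their roles, and the scaling software is not given in the sources used here. The table also holds 6 columns of other series, which were not used. Transcript lengths were not used, so levels are compared only within a gene. Promoter windows and gene positions are from RefSeq (GRCm38.p6).

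Values were tested as log2(normalized counts + 1). Relations across clones used exact two-sided permutation tests over all pairings (362880 for 9 clones), with Benjamini-Hochberg adjustment within a family. Prefixes were compared with limma 3.58.1 (lmFit, eBayes with a trend) among genes whose mean reached 10, adjusted over all genes. Both tests were tested on simulated data. The 10 genes and the lists of further genes were chosen with earlier results of these data known. The relations always named are Il6 with Lif, Il6 with Socs3, Lif with Socs3, Il6st with Stat3, Il6 with Mettl3, Osm with the macrophage level and Osmr with the fibroblast level. Beside them, relations past the threshold and the 3 genes most like Il6, Lif and Socs3 are named, and list genes with the highest or lowest counts of a list, which says nothing of their levels against each other. Other genes named with values were chosen after their values were seen. The values of 1 gene of the further ligand list are not reported here. Alternatives were another pseudocount, filter or scaling, the deposited log2 values as they are, limma without a trend or with voom on recovered reads, leaving out libraries and centring within prefixes. Leaving out C3 from levels and relations was added after the data were seen. R 4.3.3 and Python 3.11.15 (scipy 1.17.1, statsmodels 0.14.6, pandas 2.3.3, matplotlib 3.10.9, numpy 2.4.6) were used.

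For the other marker lists, the summed levels were 20.3 to 188 normalized counts for 5 epithelial genes and 156 to 429 for 4 endothelial genes. Of the neutrophil list only S100a8, and of the mast cell list only Kit, were listed, at no more than 24.6 and 15.9. None of the 4 T and B cell genes was listed.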

Additional observations from a re-analysis of the deposited data

Results flagged for a closer look

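Each of 58 genes, the family genes and the further genes of the pathway, was examined for a library far from the other 8, as judged by the gap between the highest or lowest library and its neighbour, divided by the range of all 9 and set against Dixon's critical value at 95%. This marked 8 genes. The nominal rate for normally spread values is about 1 in 20, or 2.90 of 58, and the genes are not independent. The share of all genes that the same rule would mark was not worked out, so the 8 cannot be read as an excess. Of the 10 family genes, 1 was marked. Osm was highest in A1, at 333 normalized counts against 195 in the next library, with a gap of 0.684 of the range.

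A1 was also the highest library for 4 further genes. The gap was 0.768 of the range for Fos, an immediate early gene that was at 4692 against 1386, and 0.597 for Tnf, which was at 1232 against 755. It was 0.580 for Zfp36, at 5153 against 2795, and 0.504 for Jak1, at 8558 against 7808. A1 was the lowest library for Rc3h1, with a gap of 0.738 (1234 against 1605), and for Cebpb, a transcription factor gene that STAT3 induces, with a gap of 0.555 (871 against 2651). The remaining gene was Mcl1, an anti-apoptotic gene that was highest in C4 at 14122 against 10714, with a gap of 0.626. For comparison, A1 was the highest library for 20.0% of the genes whose mean reached 10 normalized counts. A1 was the shallowest library and the only one of its prefix, so clone, depth and prefix cannot be told apart.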

How the results depend on the processing

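The mean levels of the 10 genes stayed within 1 SD over clones under all 4 alternatives for each. Leaving out 1 of 9 libraries cannot move a mean by 1 SD, so for those alternatives the result was fixed in advance. Rescaling to the total acted on library sums of 25296797 to 26693116 normalized counts, which left little room to move. Between prefixes, no log2 difference changed direction or its side of the threshold under 16 alternatives, except that Il11 was not tested with a filter at a mean of 50. No paired analysis was possible because the study has only 1 group. Among the family genes, the count of pairs passing went from 5 to 3 after rescaling to the total and without the prefix A library, to 1 without the 2 clones farthest from the median, to 2 without C3 and to 0 after centring within prefixes. In the last, 6 of 45 pairs had an unadjusted p under 0.05 by the exact permutation test, 0 passed by rho, and only 576 pairings exist. With so few, no pair or relation could pass unless others also had a very low p. Of the 30 relations with Mettl3 and marker levels, the count went from 1 to 0 with a pseudocount of 0.1, without the 2 farthest clones and after centring (where 2 of 30 had an unadjusted p under 0.05), and to 2 without C3. The cause was not tested. Of the relations named in the report, 5 turned direction under some alternative, among them Osmr with Lifr (r = -0.16 without the 2 farthest clones). Without C3, r was -0.054 for Il6 with Lif and -0.23 for Lif with Socs3, which was -0.0088 after rescaling to the total. For Il6 with Mettl3, r was -0.51 without the prefix A library, -0.75 without the 2 farthest clones and -0.16 after centring, and for Osm with Mettl3 it was -0.17 after centring. The count of genes called between prefixes, 29, ranged from 8 (without B1) to 262 (without C3) when a library was left out, and was 31 with voom and 20 without a trend. Leaving out any 1 of the 8 libraries moved it by over 1.5 times. Depth limits Il11 most, at 4 to 29 reads per library.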
